A study of Arabidopsis thaliana with 6 samples.

Results

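The curculin-like mannose-binding lectins of Arabidopsis thaliana were followed in root tips given the peptide CLE10 or the peptide CLE25. AT5G18470 had 2.38 times more signal with CLE10 than with CLE25, and the other family members that could be read, as pairs, differed by 1.19 and 1.3 times in the same direction. The list held 6 genes of this family, AT5G18470, AT1G78820, AT1G78830, AT1G78850, AT1G78860 and AT1G16905. A gene was to be read from probe sets that the array's annotation assigns to that gene alone, and this left 1 of the 6, AT5G18470, of 13350 genes that the array names in this way. Another 4 of the 6 are named only in 2 probe sets that name a pair of genes each, and their signals are given for the pair. AT1G16905 has no probe set named here, and no value is given for it. The family assignment comes with the list, since the gene table used here gives these loci no other name. AT5G18470 came to attention because it differed between the peptides on these same arrays, so its difference is a description and carries no test, and the same treatment was given to the rest of the family.

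Lectins are proteins that bind sugars without changing them. The curculin-like family carries the bulb-type lectin domain first described in the mannose-binding lectins of snowdrop and its relatives, and is named after curculin, a sweet-tasting protein of the same fold. In plants the domain occurs in secreted proteins and, joined to a kinase, in the G-type lectin receptor kinases of the cell surface. CLE peptides are small secreted signals, cut from longer proteins, that receptor kinases at the cell surface detect.

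The arrays came from Col-0 wild type, the standard laboratory accession, grown for 7 days in shaken liquid medium at 23 °C under continuous light. Root tips of 5 mm were sampled after 12 h with chemically synthesized peptide at 1000 nM, CLE10 in one group and CLE25 in the other, with 3 arrays in each group. The study compared these peptides to find genes behind their unlike effects. No array of untreated roots was analysed here, so a lower signal with CLE25 and a higher signal with CLE10 cannot be told apart. Whether the 3 arrays of a group stand for separate cultures is not stated in the labels, so the errors given here cover the spread among arrays and may be technical.

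AT5G18470 had the widest separation of the 3 lectin probe sets. Its signal, on the linear scale of the deposited table, was 412, 229 and 335 on the CLE10 arrays of replicates 1, 2 and 3. On the CLE25 arrays it was 128, 126 and 157. The groups did not overlap, and the lowest CLE10 array lay 1.46 times above the highest CLE25 array. All 6 values lay above 92.3, the signal under which the mean of a probe set was too dim to be tested. The CLE10 arrays were spread over a range of 1.8-fold and the CLE25 arrays over 1.24-fold.

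The group means of AT5G18470 were 326 ± 91.9 (SD, n = 3) with CLE10 and 137 ± 17.2 with CLE25, a ratio of 2.38. The fitted log2 fold change, CLE25 minus CLE10, was -1.18 ± 0.20 (SE). Here and below the fold change was taken after 6.03 was added to each signal, which understates differences of dim probe sets. Array by array, the log2 difference was -1.64 between the arrays numbered 1, -0.83 between those numbered 2 and -1.07 between those numbered 3. The value was -1.41 without CLE10 replicate 2, the lowest CLE10 array, and -0.99 without CLE10 replicate 1, the highest. In a piece of root, fewer cells of a type and less RNA per cell cannot be told apart.

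**Figure D1:**
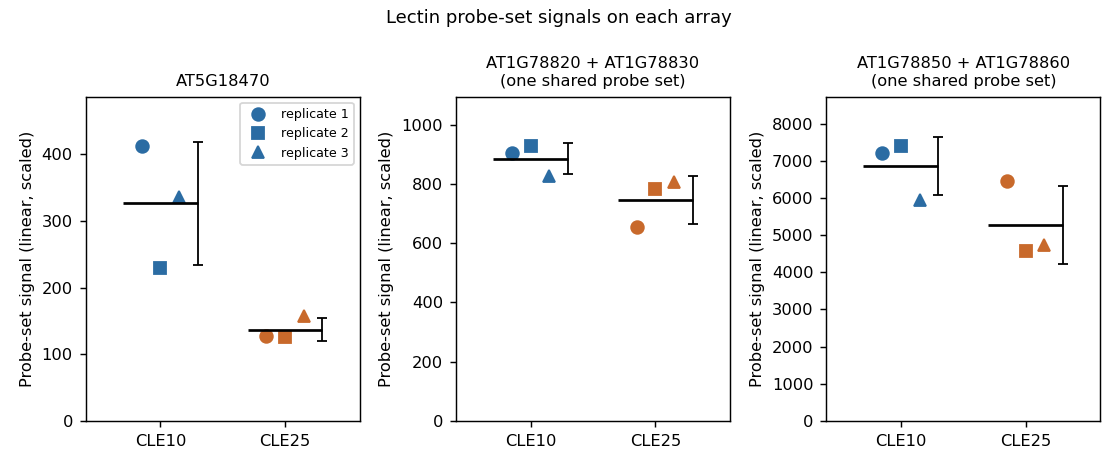
Signal of the 3 lectin probe sets on each array (vertical axes, linear scaled signal from 0; blue, CLE10; orange, CLE25; symbols mark the replicate number), with group means as lines and the SD as bars (n = 3). The CLE25 arrays of AT5G18470 lie between 126 and 157 and its CLE10 arrays between 229 and 412, while the groups lie close together for AT1G78820 with AT1G78830 and overlap for AT1G78850 with AT1G78860.

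The listed genes named in pairs sit side by side on chromosome 1 in the gene table's order. Between the pairs lies 1 gene, AT1G78840. The probe set that names AT1G78820 and AT1G78830 had signals of 904, 928 and 827 with CLE10. With CLE25 the signals were 654, 782 and 806. The groups did not overlap, but the lowest CLE10 array lay only 1.03 times above the highest CLE25 array. The means were 886 ± 52.9 (SD, n = 3) and 747 ± 81.5, with a log2 fold change of -0.25 ± 0.12 (SE). This value was -0.16 without CLE25 replicate 1, the lowest of the 6 arrays.

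The probe set that names AT1G78850 and AT1G78860 had signals of 7212, 7394 and 5953 with CLE10. With CLE25 the signals were 6466, 4577 and 4739. These groups overlapped, as CLE25 replicate 1 lay above CLE10 replicate 3. The means were 6853 ± 784 (SD, n = 3) and 5261 ± 1047, with a log2 fold change of -0.39 ± 0.14 (SE). Both probe sets carry the array maker's suffix for probes that match several transcripts, so neither signal can be given to one gene of its pair, and unlike changes of the genes within a pair would not be seen.

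All 3 lectin probe sets thus had lower means with CLE25, where 50.6% of the 13648 probe sets tested did. Of the 3, 2 were lower with no overlap between groups, and 4.51% of all tested probe sets were, while 4.67% were higher with no overlap. At least 2-fold lower was 1 of the 3, AT5G18470, against 0.0586% or 8 of all tested probe sets. Nothing is read from these counts, since AT5G18470 was chosen on this contrast. The median of the 3 log2 fold changes was -0.39 and that of all tested probe sets 0.00, and as AT5G18470 is one of the 3, nothing is read from this either. AT5G18470 held rank 4 from the lowest of the 13648, AT1G78850 with AT1G78860 rank 233 and AT1G78820 with AT1G78830 rank 867. With limma, 0 of the 13648 probe sets (0%) passed an adjusted p of 0.05, the lectin probe sets included, and 575 (4.21%) had an unadjusted p under 0.05.

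**Figure D2:**
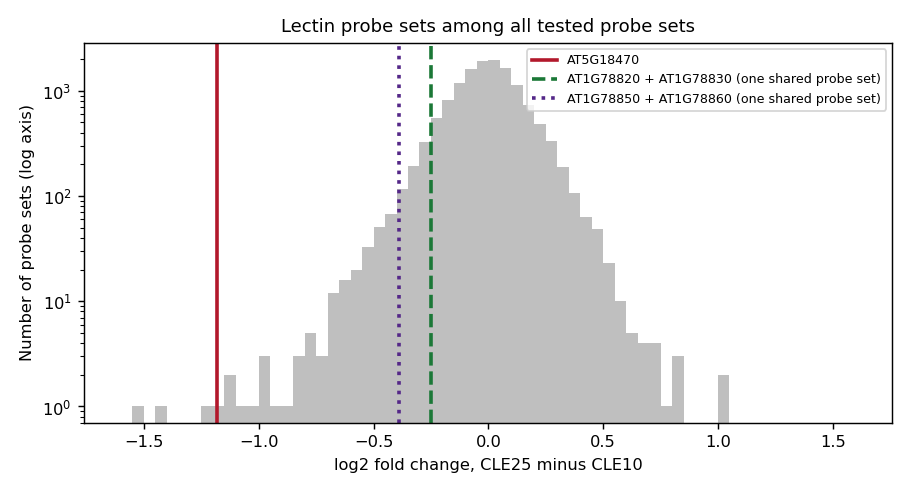
Log2 fold change of CLE25 minus CLE10 (horizontal axis) for the 13648 tested probe sets in bins of the histogram (vertical axis, number of probe sets on a log scale), with lines at the 3 lectin probe sets. AT5G18470 at -1.18 lies in the sparse lower tail, the shared probe set of AT1G78850 and AT1G78860 at -0.39 lies below the 5th percentile of -0.27 over single probe sets, and that of AT1G78820 and AT1G78830 at -0.25 just above it.

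The lectin probe sets did not share one profile over the arrays. Across the 6 arrays the log2 values of AT5G18470 correlated at a Pearson r of 0.70 with the probe set of AT1G78820 and AT1G78830, and 5.25% of tested probe sets had an r at least as high. The r was 0.59 with the probe set of AT1G78850 and AT1G78860, and 9.38% of tested probe sets reached it. Between the shared probe sets r was 0.34. When each array was taken as its deviation from its group mean, these values were 0.02, -0.25 and -0.48 in the same order. These are descriptions over 6 arrays that share the contrast by which AT5G18470 was chosen. So few arrays cannot decide whether the lectin probe sets share a profile.

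The named gene with the profile most like AT5G18470 was B120 (AT4G21390), itself a receptor kinase of the G-type lectin class, with an r of 0.996 over the 6 arrays. Its signals were 210, 187 and 206 with CLE10 and 167, 166 and 173 with CLE25. B120 ranked the 6 arrays in the same order as AT5G18470, from CLE10 replicate 1 at the top to CLE25 replicate 2 at the bottom. The size was far smaller, at a log2 fold change of -0.24 ± 0.15 (SE) and a 95% confidence interval from -0.56 to 0.08. The next 4 named genes were AT3G05150 (r = 0.983), AT1G02750 (0.977), AT1G72730 (0.975) and AT3G15220 (0.975), with log2 fold changes of -0.43, -0.24, -0.23 and -0.35. They were the highest of 7449 one-gene probe sets compared, and 20 of all tested probe sets reached an r of 0.95. The CLE25 arrays lay below the CLE10 arrays in each of these genes, which a high r to AT5G18470 largely fixes.

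**Figure D3:**
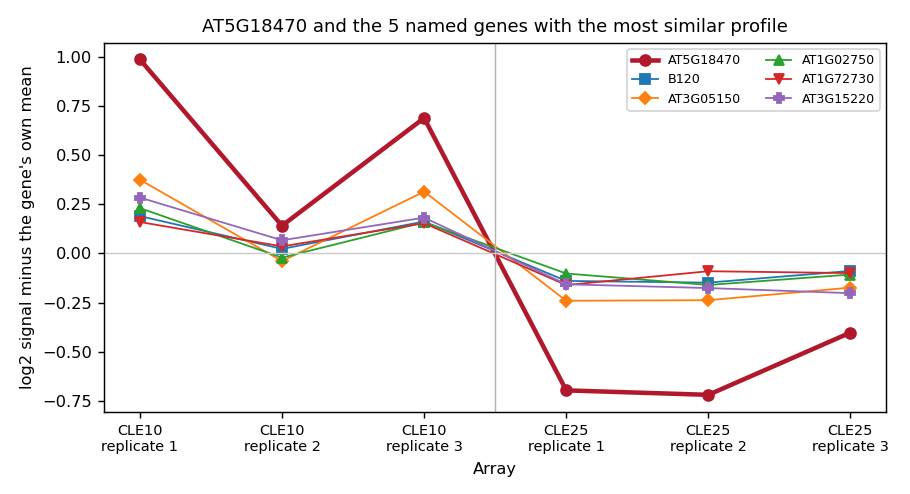
Log2 signal minus the gene's own mean (vertical axis) on the 6 arrays (horizontal axis, in groups; the lines join arrays only to make each gene readable) for AT5G18470 and the 5 named genes with the highest Pearson r to it. All of them are lower with CLE25 and have CLE10 replicate 2 as their lowest CLE10 array, and AT5G18470 has the widest range.

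G-type lectin receptor kinases, which carry the same bulb-type lectin domain outside the cell, were measured through 29 of the 39 loci listed. Of these, 12 were bright enough to be tested and 0 passed an adjusted p of 0.05 in limma in either direction. An unadjusted p under 0.05 was found for 0 of the 12, and for 4.21% of all tested probe sets. The means were lower with CLE25 for 7 and higher for 5, and the median log2 fold change was -0.06, against 0.00 for all tested probe sets. The values of the tested members lay between -0.24 (B120) and 0.18 (AT1G61360). Among the 4 of highest signal, AT1G11280 had 818 ± 52.3 (SD, n = 3) with CLE10 against 875 ± 34.6 with CLE25, which is 0.10 on the log2 scale with a 95% confidence interval from -0.13 to 0.32. AT1G61360 had 393 ± 58.8 and 444 ± 22.5. AT5G35370 had 330 ± 43.6 against 284 ± 28.4, which is -0.21 on that scale, and AT1G34300 had 314 ± 26.2 against 286 ± 22.1, which is -0.13. The lowest confidence bound among the 12 tested was -0.71 (AT2G19130, named after its value was seen). AT5G18470 has an interval of its own, from -1.63 to -0.73. As it was chosen on this contrast, nothing is read from its distance to these relatives. The other 17 were too dim to be tested and had wider intervals, such as -2.03 to 0.86 for AT1G61550. Their values ran from -0.74 (AT4G27300) to 1.01 (AT1G61440, interval from 0.00 to 2.01). These 3 genes were also named after their values were seen.

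Jacalin-related lectins, which bind mannose and other sugars through an unrelated fold and are abundant in roots, were measured through 16 of 25 listed loci, 9 of them bright enough to be tested. None passed an adjusted p of 0.05 in limma (0 of 9). An unadjusted p under 0.05 was found for 0 of the 9, and for 4.21% of all tested probe sets. The means were lower with CLE25 for 4 and higher for 5, with a median log2 fold change of 0.03. JAL34 stood at a signal of 16510 ± 1386 (SD, n = 3) with CLE10 against 14776 ± 2361 with CLE25, or -0.17 ± 0.13 (SE) as a log2 fold change. AT1G52070 stood at 9656 ± 2550 against 10243 ± 216, or 0.12 ± 0.17. AT1G52060 had 6125 ± 1778 and 7773 ± 730, the highest value of the 9 tested at 0.39 ± 0.18, and AT2G25980 had 4457 ± 345 and 4543 ± 433. The lowest value of the 9 belonged to JAL33, singled out after its values were seen, at -0.63 ± 0.36, with an interval from -1.42 to 0.16. The 7 dim members ran wider, from -0.96 (AT1G73040, 40.7 ± 7.44 against 20 ± 13.9) to 1.32 (JAL23, 6.48 ± 7.42 against 22.3 ± 5.53), both named after their values were seen. The intervals of AT1G73040 (-1.90 to -0.01) and JAL23 (0.29 to 2.34) left out 0, and those of the other dim members included it. JAL23 was higher with CLE25 with no overlap, as were 4.67% of all tested probe sets, which hold no dim ones. Its mean with CLE10 was close to the pseudocount of 6.03, and nothing is read from it.

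**Figure D4:**
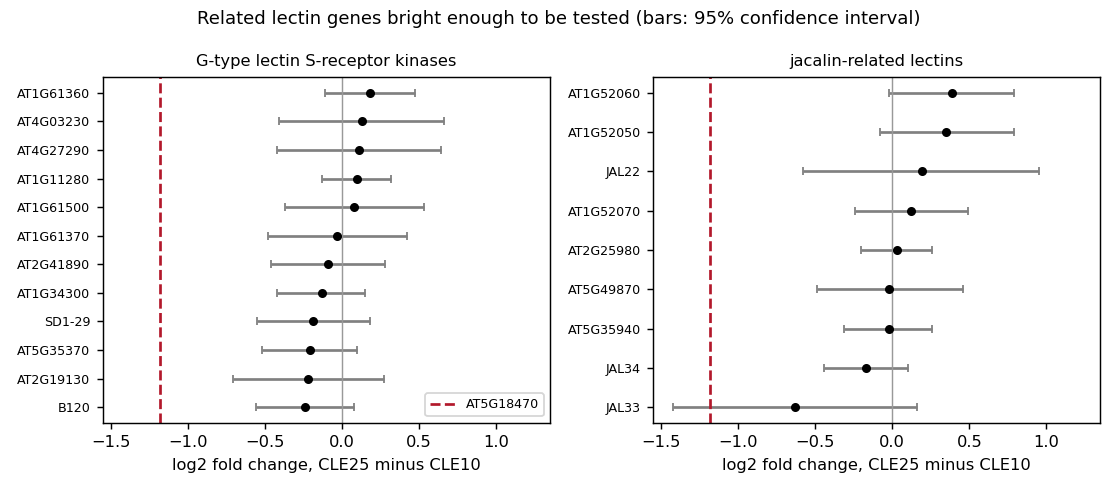
Log2 fold change of CLE25 minus CLE10 (horizontal axes; points with 95% confidence intervals) of the 12 G-type lectin receptor kinases and 9 jacalin-related lectins that were tested, with the dashed line at AT5G18470. All 21 intervals include 0, and the interval of JAL33 is the only one that reaches the line. The line is drawn without its own error and marks a gene chosen on this contrast, so nothing is read from the distance to it.

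Of the lectin chaperones of the endoplasmic reticulum, which hold newly made glycoproteins while they fold, 2 of 5 were measured. CRT1b, a calreticulin, had 8876 ± 650 (SD, n = 3) with CLE10 against 8100 ± 265 with CLE25, and its log2 fold change was -0.13 ± 0.09 (SE). AT5G07340 had 650 ± 25.6 against 538 ± 36.7, and its log2 fold change was -0.27 ± 0.11, with no overlap between groups. Neither passed in limma (adjusted p = 0.9995 at the lowest). An unadjusted p under 0.05 was found for 1 of the 2, and for 4.21% of all tested probe sets. Lower with no overlap were 4.51% of all tested probe sets. The list of phosphate starvation genes and acid phosphatases had 18 loci and 0 with a probe set named here.

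Genes beside the lectins on the chromosomes were looked at within 3 places on each side. A probe set of its own was named for 4 of 6 genes beside AT5G18470. The same held for 4 of 7 around the pairs and 0 of 6 beside AT1G16905. AT5G18460, the gene just before AT5G18470, had signals of 274, 291 and 236 with CLE10 and 181, 164 and 204 with CLE25. The means were 267 ± 28 (SD, n = 3) and 183 ± 20. Its groups did not overlap, and 4.51% of all tested probe sets were lower with no overlap. Its log2 fold change was -0.53 ± 0.15 (SE; limma unadjusted p = 0.00449, adjusted p = 0.9995), so it did not pass over all probe sets. AT5G18475, the gene just after, overlaps the span of AT5G18470 in the gene table. It was dim on all arrays at 78.5 ± 19.3 and 68.4 ± 6.65, with overlapping groups and a log2 fold change of -0.16 ± 0.28. AT5G18490, 3 places on, stood at 248 ± 39 against 203 ± 53.5, and its log2 fold change was -0.30 ± 0.19. AT5G18450, 2 places before, was dim and had the other sign, at 64.5 ± 18.2 against 69.7 ± 9.45. The groups overlapped there, with a log2 fold change of 0.13 ± 0.29.

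Around the chromosome 1 lectins, AT1G78840 between the pairs was dim, at 21.2 ± 5.99 (SD, n = 3) with CLE10 and 33.6 ± 12.4 with CLE25. AT1G78810 stood at 371 ± 33.5 against 320 ± 11.8, with a log2 fold change of -0.21 ± 0.12 (SE). Its groups did not overlap, as was so for the 4.51% of all tested probe sets that were lower in this way. AT1G78890 had -0.17 ± 0.12 and AT1G78800 had 0.04 ± 0.16. None of these passed in limma (adjusted p = 0.9995 for each of the 3 that were tested).

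The trimmed mean signal of the arrays was 500.0 to 500.1 and the median 157.3 to 171.7. The log2 difference between 3' and 5' probe sets, a reading of RNA quality, was 3.41 to 3.98 for actin with CLE10 and 3.50 to 4.27 with CLE25, with overlapping ranges. For GAPDH this difference was much smaller, 0.48 to 0.65 with CLE10 and 0.47 to 0.76 with CLE25. The actin probe sets for the 3' and 5' ends differ in the array maker's suffix, and those of GAPDH do not. How much of the actin difference comes from the probes was not tested. Root markers were measured through 8 of 19 loci, those with a probe set named here for that gene alone. Their summed signal was 6336 to 7508 with CLE10 and 6346 to 8864 with CLE25. The highest were the root hair expansins EXPA18 (2909 ± 285 SD and 3219 ± 743, n = 3) and EXPA7 (1564 ± 237 and 1904 ± 628). The mitotic kinase AUR1 had 657 ± 59.1 and 775 ± 59.8, higher with CLE25 with no overlap, as were 4.67% of all tested probe sets. GSO1, an endodermal receptor kinase, was at 608 ± 55.6 and 598 ± 59.2. Of the markers below these in signal, the related kinase AUR2 had 458 ± 69.8 and 442 ± 36.9, or -0.04 ± 0.14 (SE) as a log2 fold change. BBM had 121 ± 13.4 and 103 ± 30.7, or -0.25 ± 0.23, and JKD had 147 ± 58.5 and 142 ± 17.6, or 0.03 ± 0.28. The groups overlapped for AUR2, BBM and JKD, so the separation of AUR1 was not shared by AUR2. The median log2 fold change of the 8 markers was 0.00, and 0 of them passed in limma. An unadjusted p under 0.05 was found for 1 of the 8, and for 4.21% of all tested probe sets. That marker, named after its value was seen, was SWEET11, a sucrose transporter of the phloem, with 501 ± 162 (SD, n = 3) against 299 ± 107 and -0.76 as its log2 fold change (95% confidence interval from -1.35 to -0.16; limma unadjusted p = 0.0177, adjusted p = 0.9995). Its groups overlapped. SWEET11 had the lowest value of the 8 and the same sign as AT5G18470, and its part in the lectin values was not tested. Of 12 green tissue markers 1 was measured, LHCB4.1, with signals from 91.9 to 148 with CLE10 and from 40.2 to 129 with CLE25, and its part in the lectin values was not tested.

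The lectin values were recomputed under other pseudocounts, filters, scalings and fits. The sign stayed below 0 for the 3 probe sets in each of them that kept the probe set, AT5G18470 being left out by the filter at the 60th percentile. For the probe sets with no overlap between groups, this follows in part from that separation.

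**Figure D5:**
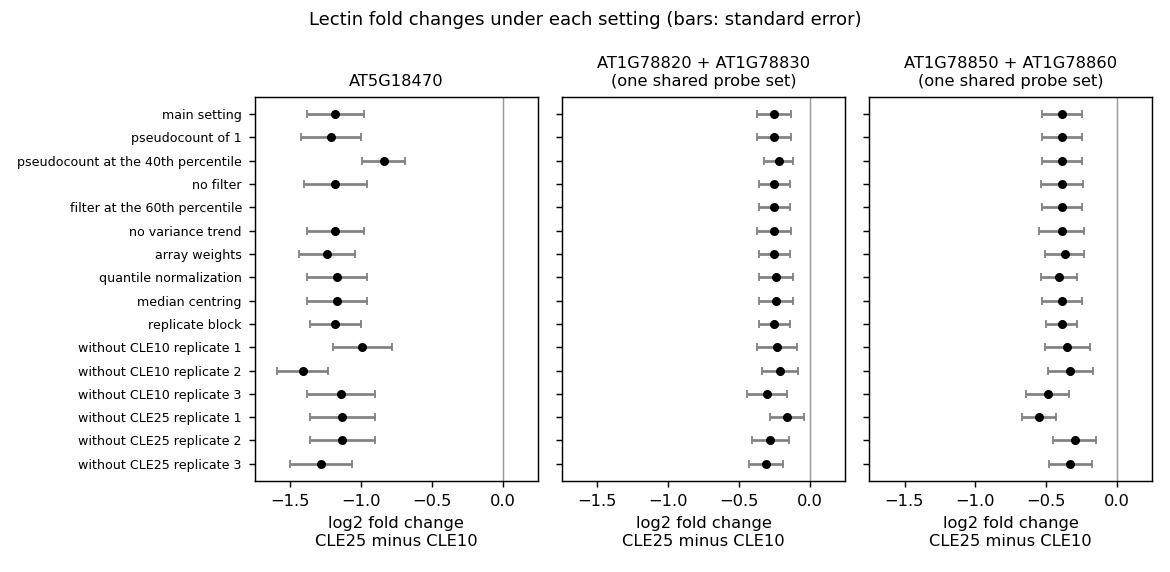
Log2 fold change of CLE25 minus CLE10 (horizontal axes; bars, standard error) of the 3 lectin probe sets under each setting (rows). AT5G18470 runs from -1.41 to -0.84 and was too dim for the filter at the 60th percentile, and the shared probe sets run from -0.31 to -0.16 and from -0.55 to -0.30.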

How the data were processed

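Root tip RNA was labelled with biotin and hybridised to 1 array per sample. The authors deposited an intensity for each probe set and array, on a linear scale. GCOS 1.4 is named in the submitters' processing notes, without settings. The 2% trimmed means were equal on all arrays, so the values were used as scaled by the authors. A shift common to all transcripts would be lost in such scaling. Of 22810 probe sets, 64 controls were left out. Names came from the platform annotation, with symbols from the TAIR10.1 gene table by gene identifier, a table that served for names and gene order alone. The annotation used here left 8730 probe sets with no name and gave several genes to 503. A listed locus counted as not measured may therefore still have a probe set on the array. Signals were taken as log2(signal + 6.03), the 10th percentile of all values being the pseudocount, and probe sets with a mean log2 value under the 40th percentile (6.62) were left out, which kept 13648. The peptides were compared with limma 3.58.1 in R 4.3.3 (CLE25 minus CLE10, lmFit, eBayes with a variance trend) without a replicate block, with Benjamini-Hochberg adjustment. The fit was tested on simulated data with independent noise between arrays, which does not cover effects shared by arrays of the same number. Named genes were the members, the 5 one-gene probe sets with the highest r to AT5G18470, and the listed members of each related list, or its 4 of highest signal where over 6 were measured. The members and lists were chosen with earlier results of these data known. The neighbouring genes were added later, for their position. For arrays, their number limits the precision. Detection calls were not analysed here. A comparison of protein sequences was planned and not run, as no sequences were used here.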

Additional observations from a re-analysis of the deposited data

How the results depend on the processing

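The number of probe sets past an adjusted p of 0.05 in limma was 0 in each alternative but one, leaving out each array included (0 to 0; 358 to 889 at an unadjusted p under 0.05). With a replicate block it was 1, AT3G45160, named after its value was seen (log2 fold change 1.003 ± 0.111 SE, adjusted p = 0.0359, and 0.0359 to 0.986 over the alternatives), and no lectin probe set passed. The block left the AT5G18470 value at -1.18 ± 0.18 and the shared probe sets at -0.25 ± 0.11 and -0.39 ± 0.11. Same-numbered arrays had deviations from their group means that correlated at 0.076, 0.136 and 0.221, each the highest for its number. What a number marks is not in the labels, and the arrays were not taken as paired. A pseudocount at the 40th percentile (93.1) gave -0.84 for AT5G18470, as a larger pseudocount shrinks folds by construction, and the value was -1.24 to -1.17 under the other alternatives that kept all arrays. The filter at the 60th percentile left the gene out. Without one of the arrays it lay from -1.41 to -0.99, AT1G78820 with AT1G78830 from -0.31 to -0.16, and AT1G78850 with AT1G78860 from -0.55 to -0.30, as did the median of the 3. Dimness limits AT5G18450, AT5G18475 and AT1G78840.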
